A study of Mus musculus with 8 samples.

Results

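The 7 genes described here, Acod1, Nos2, Ass1, Slc7a2, Gpr84, Hcar2 and Sucnr1, act in itaconate synthesis, arginine metabolism and metabolite sensing by macrophages. They were taken by symbol from the 53735 rows of the count tables. The genes were chosen by function with their knockout against wild-type differences in these libraries already known, and those differences are therefore given below as a description, with no p-value. Where a member is said to be called, its adjusted p in the fit over all genes was under 0.05, and such calls are only counted beside the share of all genes and support nothing. All 7 genes passed the filter on low counts, which left 15618 genes, although Sucnr1 did so only through its wild-type libraries.

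RNA was sequenced from bone marrow-derived macrophages (BMDMs), which were grown from marrow cells over 7 days in culture. The marrow came from 6-month-old male mice that had received angiotensin II (Ang II), a vasoconstrictor peptide, at 1.44 mg/kg/day for 7 days. The control group (WT) was Mkl1+/+, Apoe-/- and the knockout group (KO) was Mkl1-/-, Apoe-/-, so that every library, controls included, lacks apolipoprotein E and comes from an Ang II-treated mouse. MKL1 is a coactivator of serum response factor, and its deletion in these mice was constitutive and not limited to macrophages. Libraries 1 and 2 (WT) and 5 and 6 (KO) formed experiment 1, and libraries 3 and 4 (WT) and 7 and 8 (KO) formed experiment 2, which leaves 2 libraries in each group of each experiment. The labels do not state that the libraries of a group came from separate mice, so the errors given here measure the spread between libraries. No untreated mice were included in these comparisons.

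Macrophages that meet microbial products or inflammatory cytokines rewire their metabolism. Acod1 encodes the mitochondrial enzyme that converts cis-aconitate of the tricarboxylic acid (TCA) cycle to itaconate, an antimicrobial and immunoregulatory metabolite. Arginine is used by inducible nitric oxide synthase (Nos2) to make nitric oxide or is turned into ornithine and urea, argininosuccinate synthase (Ass1) begins its regeneration from citrulline, and cationic amino acid transporters such as Slc7a2 carry it into the cell. Gpr84, Hcar2 and Sucnr1 are G protein-coupled receptors for medium-chain fatty acids, for nicotinic acid and beta-hydroxybutyrate, and for succinate, respectively.

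The libraries held between 33977799 and 41584540 gene-assigned reads. Mkl1 itself was read at 25.7 and 27.1 CPM (the counts of a gene relative to the scaled total of its library) in WT and 19.3 and 20.7 CPM in KO libraries of experiment 1. In experiment 2 Mkl1 stood at 26.9 and 29.7 CPM in WT and 14.6 and 10.5 CPM in KO libraries. Every KO library was thus below every WT library, but KO transcript remained at 0.750 of WT in experiment 1 (edgeR quasi-likelihood test, adjusted p = 0.0028) and 0.444 in experiment 2 (edgeR, adjusted p = 0.0196). The first of these calls was lost with all 8 libraries in one fit, and the second when WT library 3, WT library 4 or KO library 8 was left out. Over both experiments the log2 fold change of Mkl1 was -0.78 ± 0.19 and did not pass (edgeR, adjusted p = 0.0534). It passed there with DESeq2, with no filter on low counts and for the mean of both genotype effects. Gene-level counts do not separate reads of the deleted part of Mkl1 from reads of the rest, so the genotype of each library rests on its label. The 10 macrophage markers were all read in every group, with summed levels of 16674 to 36865 CPM per library. In experiment 1, 6 of the 10 were higher and 3 lower in KO (median log2 fold change 0.61), and in experiment 2, 2 were higher and 2 lower (median -0.13). The mannose receptor gene Mrc1 was higher in KO by 1.89 in experiment 1 (edgeR, adjusted p = 6.6e-06). It stood at -0.09 in experiment 2 (edgeR, adjusted p = 0.933). Csf1r, the receptor for the macrophage growth factor, was 0.80 higher in experiment 1 (edgeR, adjusted p = 0.00099) and fell by 1.28 in experiment 2 (edgeR, adjusted p = 0.0281). Adgre1, the gene of the F4/80 antigen, stood at 8354 and 7111 CPM in WT against 1909 and 1653 CPM in KO libraries of experiment 1. In experiment 2 the order of Adgre1 was the opposite, with 2685 and 2730 CPM in WT and 4881 and 5293 CPM in KO. The 8 fibroblast markers summed to 172 and 228 CPM in KO libraries 5 and 6 against 1.95 to 11.3 CPM in the other 6 libraries. Of the 11 neutrophil markers Csf3r, a growth factor receptor gene, stood at 38.2 to 79.0 CPM with the 2 KO libraries of experiment 1 lowest, while S100a8 was at most 1.33 CPM and the other 9 were at or near 0. Summed, neutrophil markers came to 38.5 to 80.5 CPM, dendritic cell markers to at most 1.62 CPM, and lymphocyte markers to at most 0.144 CPM. The part of these marker differences in the levels below was not tested, and in bulk RNA fewer cells of a type and less RNA per cell cannot be told apart.

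Acod1 had the highest level per length of the 7 genes in WT cells. It also had the largest fitted difference between KO and WT among the 6 members read in every group. In experiment 2 its lead over Gpr84 was within the errors (log2 fold changes -4.94 ± 0.56 and -4.51 ± 0.25). Without KO library 8 the order there turned, with Gpr84 at -4.85 and Acod1 at -4.50. The gene lies at chr14:103046977-103056573 on the forward strand of GRCm38. Its upstream sequence is shown because Acod1 is the member with the widest range over the libraries, and RefSeq (GRCm38.p6) placed its start further downstream than the annotation used for the gene. Capitals mark the TATA box, spelled TATAAA, which was found 28 to 23 bases before the RefSeq start and is held by 12.4% of the 32851 promoters of the same length.
Acod1, 250 to 36 bases before the start, chr14:103046762-103046976 (+): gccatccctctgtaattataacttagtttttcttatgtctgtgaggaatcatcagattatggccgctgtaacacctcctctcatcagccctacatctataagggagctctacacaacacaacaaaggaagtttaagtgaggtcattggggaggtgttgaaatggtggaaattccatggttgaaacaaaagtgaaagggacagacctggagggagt
Acod1, 30 to 1 bases before the start, chr14:103046982-103047011 (+): tgTATAAAggcacacgtccactaaaggccc
Both strands of the 250 bases before the start were searched for 6 motifs. These were the NF-kB site and the CArG box of serum response factor by their usual consensus, the AP-1 site TGANTCA, the interferon response core GAAANNGAA, the GAS element TTCNNNGAA and the TATA box. They occur in 3.90%, 1.47%, 6.75%, 7.13%, 7.02% and 12.4% of all promoters, respectively, and none of the first 5 was found upstream of Acod1. RefSeq promoters were at hand for 4 of the 7 genes, Acod1, Gpr84, Ass1 and Sucnr1, and the only other match was an AP-1 site 159 to 153 bases before the start of Sucnr1. A match or its absence describes these letters in this window and not the binding of a factor.

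In experiment 1, Acod1 was read at 633 and 286 CPM in WT libraries and at 3.56 and 5.55 CPM in KO libraries. Experiment 2 gave 3176 and 1680 CPM in WT and 107 and 50.5 CPM in KO libraries. All WT libraries were above all KO libraries, and the lowest WT library, library 2, was 2.66-fold above the highest KO library, library 7. The fitted level in KO was 101-fold lower in experiment 1 (log2 fold change -6.66 ± 0.76 SE) and 30.7-fold lower in experiment 2 (-4.94 ± 0.56). These values were -5.98 without WT library 1 and -5.58 without KO library 7, respectively. WT replicates 1 and 2, and likewise 3 and 4, differed from each other about as much as KO replicates 7 and 8 did, and far less than WT differed from KO. In experiment 1 the gene was no longer called when KO library 5 or KO library 6 was left out. The same held in experiment 2 without KO library 8 and with no filter on low counts.

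**Figure D1:**
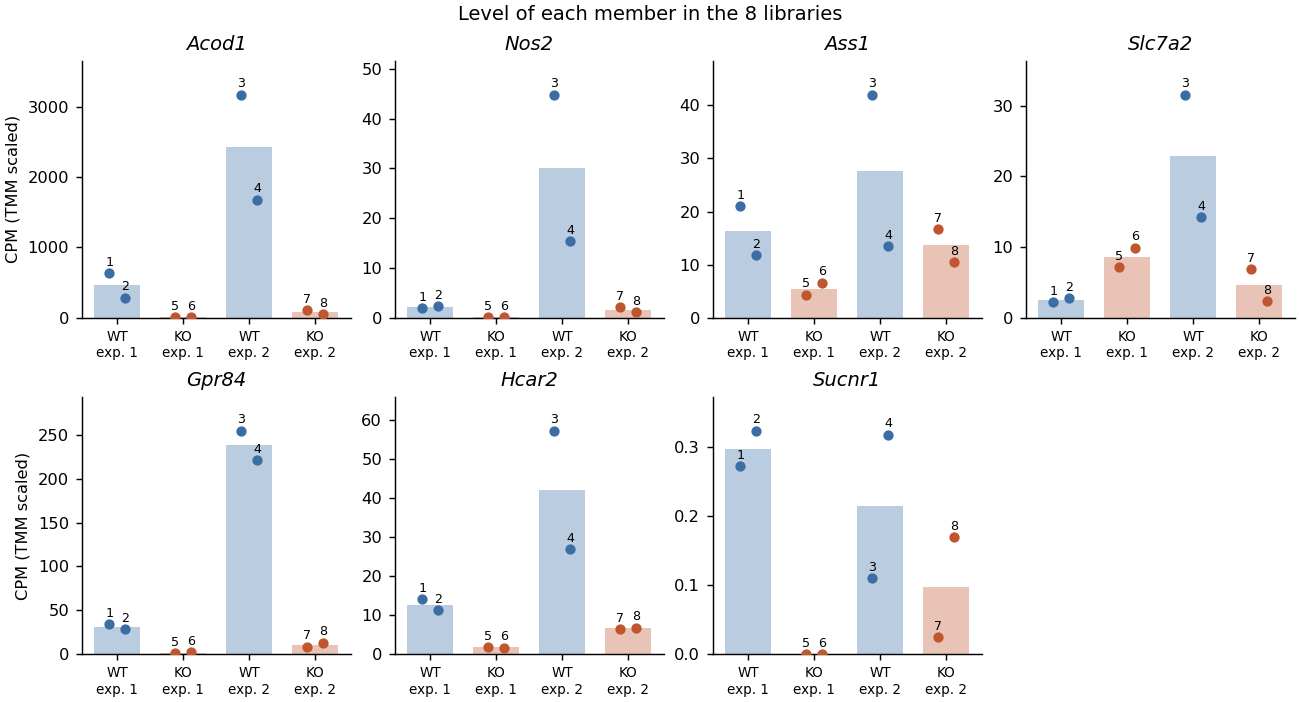
Level of each of the 7 genes in CPM (vertical axis, linear, a separate scale for each gene) in the 4 groups. Points are libraries with their numbers, bars are the means of 2 libraries. Acod1, Gpr84, Nos2 and Hcar2 were lower in both KO groups than in the WT group of the same experiment, and Slc7a2 was higher in KO in experiment 1 and lower in experiment 2.

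The other genes around itaconate and the TCA cycle moved much less, with one exception. All 28 listed genes were tested. In experiment 1, 14 of them were called lower and 4 higher in KO (64.3% beside 54.2% of all genes). The median log2 fold change was -0.20 against 0.02 over all genes tested. In experiment 2, 3 were called lower and 1 higher (14.3% beside 15.1%), with a median of -0.01 against 0.00. The mitochondrial dicarboxylate carrier Slc25a10 was lower in both experiments, by 0.74 (edgeR, adjusted p = 4.7e-05) and 0.63 (edgeR, adjusted p = 0.0348) on the log2 scale. Cytosolic isocitrate dehydrogenase Idh1 was higher in experiment 1 (log2 fold change 0.59 ± 0.07, edgeR, adjusted p = 0.00029), and its value of 0.68 ± 0.18 in experiment 2 did not pass (edgeR, adjusted p = 0.0626). The dihydrolipoamide dehydrogenase gene Dld fell by 0.66 in experiment 1 (edgeR, adjusted p = 3.5e-05) and stood at -0.08 in experiment 2 (edgeR, adjusted p = 0.717). Slc25a11, the oxoglutarate carrier, fell by 0.52 in experiment 2 (edgeR, adjusted p = 0.0322) and was at -0.07 in experiment 1 (edgeR, adjusted p = 0.316). The abundant Acly, which makes acetyl-CoA from citrate, was higher by 0.22 in experiment 1 (edgeR, adjusted p = 0.0138). In experiment 2 Acly stood at -0.0025 (edgeR, adjusted p = 0.995).

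Slc13a3, a sodium-coupled carrier of dicarboxylates, was the exception. It was read at 1599 and 2236 CPM in WT and at 0.696 and 0.594 CPM in KO libraries of experiment 1. The values of experiment 2 were 14.8 and 10.2 CPM in WT and 969 and 2149 CPM in KO libraries. The 2 libraries of a group differed by at most 2.22-fold, while the genotype with the high level changed from one experiment to the other. The log2 fold change was -11.55 ± 0.30 in experiment 1 (edgeR, adjusted p = 1.0e-05) and 6.96 ± 0.54 in experiment 2 (edgeR, adjusted p = 0.0058), and the difference between these was 18.49 ± 0.74 (edgeR, adjusted p = 3.6e-05). Every direction given here rests on the genotype labels, on which, among these values, only the partial decrease of Mkl1 in each KO group bears directly, and the labels were not tested further. Acod1 did not share the pattern of Slc13a3, since it was lower in KO in both experiments.

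Nos2 was low in experiment 1 and well read in WT cells of experiment 2. The gene, at chr11:78920787-78960254 (+), stood at 1.85 and 2.38 CPM in WT and at 0.0535 and 0.0990 CPM in KO libraries of experiment 1. These KO values were 2 and 4 reads, against 75 and 81 in WT, and the ratio of WT to KO of the summed counts was 27.1 with a 95% exact interval of 12.2 to 75.0 that covers counting error only. In experiment 2, Nos2 reached 44.8 and 15.4 CPM in WT and 2.10 and 1.13 CPM in KO libraries. KO library 7 of experiment 2 thus lay between the 2 WT libraries of experiment 1. The fitted difference was similar within both experiments, 26.5-fold lower (log2 fold change -4.73 ± 0.41) and 18.6-fold lower (-4.22 ± 0.66), respectively. The latter was -3.25 without WT library 3. Nos2 was not called in experiment 2 when KO library 7 or KO library 8 was left out, with no filter on low counts or under limma-voom.

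Ass1, at chr2:31470207-31520672 (+), varied more between the WT replicates of experiment 2 than it differed between genotypes there. In experiment 1 it was read at 21.0 and 11.7 CPM in WT and at 4.34 and 6.59 CPM in KO libraries, and the groups did not overlap. Experiment 2 gave 42.0 and 13.4 CPM in WT and 16.7 and 10.5 CPM in KO libraries, and the groups overlapped. Its log2 fold change was -1.60 ± 0.40 in experiment 1 and -1.03 ± 0.58 in experiment 2. The latter became 0.02 without WT library 3 and -1.63 without WT library 4, and the call in experiment 1 was lost when KO library 5 or KO library 6 was left out, with no filter on low counts and under limma-voom.

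Slc7a2, at chr8:40862396-40922308 (+), was the one member whose direction turned between the experiments. In experiment 1 it was read at 2.24 and 2.76 CPM in WT and at 7.18 and 9.90 CPM in KO libraries, so that KO was higher. Slc7a2 in experiment 2 was read at 31.5 and 14.2 CPM in WT and at 6.87 and 2.34 CPM in KO libraries, so that KO was lower. The groups did not overlap in either experiment. The log2 fold change was 1.76 ± 0.20 in experiment 1 (3.39-fold higher) and -2.31 ± 0.64 in experiment 2 (4.97-fold lower), a difference of -4.09 ± 0.75. The value in experiment 2 was -1.63 without WT library 3 and -3.28 without KO library 7, and it was called with DESeq2 and with all 8 libraries in one fit but not otherwise. Over both experiments the log2 fold change was -0.30 ± 1.03. Between the experiments the WT mean rose 9.15-fold, whereas the KO mean was lower in experiment 2, at 0.539 of its value in experiment 1.

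**Figure D2:**
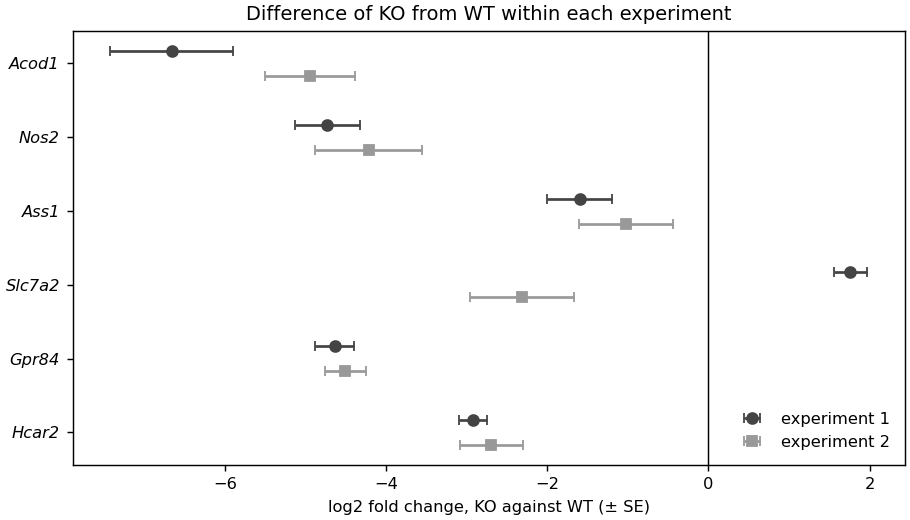
Log2 fold change of KO against WT (horizontal axis) with its standard error for 6 members, fitted separately in experiment 1 (circles) and experiment 2 (squares) on 2 libraries per genotype. Sucnr1 is left out because it had no reads in the KO libraries of experiment 1. Slc7a2 lies at 1.76 in experiment 1 and -2.31 in experiment 2, and the other 5 lie below 0 in both.

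Of 30 other genes of arginine, urea cycle and polyamine metabolism, 24 were tested. In experiment 1, 11 were called lower and 9 higher in KO (83.3% beside 54.2% of all genes). The median log2 fold change was -0.17 against 0.02 over all genes. In experiment 2, edgeR called 1 higher and 0 lower (4.17% beside 15.1% of all genes). Of the 24, 5 had an unadjusted p under 0.05, as did 5108 of the 15618 genes tested. DESeq2 called 2 higher and 1 lower, beside 3217 of all genes, and limma-voom called 0, beside 2243. Slc3a2, the heavy chain of several amino acid carriers, was read at 346 and 352 CPM in WT and at 142 and 145 CPM in KO (log2 fold change -1.30 ± 0.06, edgeR, adjusted p = 1.7e-06). In experiment 2 the mean of Slc3a2 was 357 CPM in KO against 250.1 CPM in WT, and its value of 0.51 ± 0.19 on the log2 scale did not pass (edgeR, adjusted p = 0.125). S-adenosylmethionine decarboxylase (Amd1) was read at 64.2 and 77.2 CPM in WT and at 16.9 and 17.8 CPM in KO (-2.04 ± 0.10, edgeR, adjusted p = 4.9e-06). In experiment 2 Amd1 was the single gene of the list that passed, and it was higher in KO (1.05 ± 0.25, edgeR, adjusted p = 0.0491). Azin1, the antizyme inhibitor, fell by 1.27 in experiment 1 (edgeR, adjusted p = 5.1e-06) and stood at 0.52 in experiment 2 (edgeR, adjusted p = 0.0708). Gatm, which uses arginine for creatine synthesis, was 0.26 higher in experiment 1 (edgeR, adjusted p = 0.0276) and stood at -0.74 in experiment 2 (edgeR, adjusted p = 0.0604). The polyamine acetyltransferase gene Sat1 was 0.31 higher in experiment 1 (edgeR, adjusted p = 0.0046) and stood at 0.03 in experiment 2 (edgeR, adjusted p = 0.909). Over both experiments no gene of this list passed edgeR, 6 had an unadjusted p under 0.05 there, and DESeq2 called 5 and limma-voom 1. Over all genes edgeR called 6.85% in that fit, and 3903 of the 15618 genes had an unadjusted p under 0.05. DESeq2 called 2557 and limma-voom 1175 of all genes there. For 15 of the 24, the test of the difference between the experiments passed (edgeR), which is 62.5% beside 39.8% of all genes tested.

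Tetrahydrobiopterin is the cofactor of nitric oxide synthases, and 6 of its 7 listed genes were tested. Gch1, the first enzyme of its synthesis, was read at 31.7 and 29.2 CPM in WT and at 25.1 and 27.1 CPM in KO libraries of experiment 1. The values in experiment 2 were 113 and 82.2 CPM in WT and 30.9 and 26.5 CPM in KO libraries. The KO level was therefore nearly the same in both experiments, while WT was higher in experiment 2. Nos2, by contrast, was higher in experiment 2 in both WT and KO. The log2 fold change of Gch1 was -0.24 ± 0.08 in experiment 1 (edgeR, adjusted p = 0.0350) and -1.76 ± 0.19 in experiment 2 (edgeR, adjusted p = 0.0081). Pts, the following enzyme, was 0.75 higher in experiment 1 (edgeR, adjusted p = 0.00020) and stood at -0.24 in experiment 2 (edgeR, adjusted p = 0.264). Qdpr, a recycling enzyme, passed in neither experiment (log2 fold changes -0.33 ± 0.22 and -0.49 ± 0.29).

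Of the receptors Gpr84 and Hcar2, the 2 of the set that were read in every group, Gpr84 had the larger difference between KO and WT in both experiments. The gene is at chr15:103308235-103310612 on the reverse strand. In experiment 1 it was read at 33.4 and 28.1 CPM in WT and at 0.857 and 1.61 CPM in KO libraries. In experiment 2, the values were 255 and 221 CPM in WT and 8.23 and 12.7 CPM in KO libraries. The KO libraries lay below the WT libraries over the whole set, by at least 2.21-fold even across experiments. KO was 24.9-fold lower in experiment 1 (log2 fold change -4.64 ± 0.25) and 22.7-fold lower in experiment 2 (-4.51 ± 0.25). These 2 estimates differed by less than their errors (0.12 ± 0.38), although the level itself was 7.75-fold higher in WT and 8.49-fold higher in KO of experiment 2.

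Hcar2, at chr5:123863570-123865499 (-), behaved in a similar way at lower levels. It was read at 14.1 and 11.1 CPM in WT and at 1.77 and 1.58 CPM in KO libraries of experiment 1. Hcar2 in experiment 2 was read at 57.2 and 26.9 CPM in WT and at 6.28 and 6.70 CPM in KO libraries. All 4 KO libraries lay below all 4 WT libraries. The log2 fold change was -2.92 ± 0.17 in experiment 1 and -2.70 ± 0.39 in experiment 2, which is 7.59-fold and 6.48-fold lower. Without WT library 3 the latter was -2.05. The call in experiment 2 was lost without KO library 7 or KO library 8 and with no filter on low counts. Hcar1, the lactate receptor of the same family, was at most 4 reads and was not tested.

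Sucnr1, at chr3:60081869-60087566 (+), was at the edge of detection. It had 11 reads in each WT library and 0 reads in each KO library of experiment 1. With 3 reads per library as the limit that a count of 0 allows, KO was at least 3.85-fold lower. Experiment 2 gave 4 and 11 reads in WT and 1 and 7 in KO libraries, so that the groups overlapped. The ratio of WT to KO there was 2.18, with an exact 95% interval of 0.866 to 5.92 that covers counting error only. No difference was detectable at this depth. The fitted log2 fold change was -1.11 ± 0.98, and ran from -2.96 without KO library 8 to -0.18 without WT library 4.

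Other metabolite receptors did not move as one group. Of the 20 listed genes 13 were tested, of which 4 were called lower and 4 higher in KO in experiment 1. In experiment 2, 5 were called lower and 1 higher. These are 61.5% of the 13 genes tested beside 54.2% of all genes in experiment 1, and 46.2% beside 15.1% in experiment 2. The median log2 fold change was -0.07 and -0.72, respectively. The adenosine receptor Adora2a was lower in both, at 2.69 and 2.44 CPM in WT against 0.268 and 0.272 CPM in KO in experiment 1 and at 11.7 and 8.22 CPM against 1.73 and 1.81 CPM in experiment 2. Its log2 fold change was -2.82 ± 0.23 over both experiments (edgeR, adjusted p = 0.0020). The oxysterol receptor Gpr183 turned, like Slc7a2, from 1.78 ± 0.15 in experiment 1 (edgeR, adjusted p = 3.6e-05) to -1.91 ± 0.31 in experiment 2 (edgeR, adjusted p = 0.0195). Gpr132 and Gpr65 were lower in KO in experiment 2 by 2.03 (edgeR, adjusted p = 0.0044) and 1.79 (edgeR, adjusted p = 0.0163). In experiment 1 Gpr132 stood at -0.07 (edgeR, adjusted p = 0.735) and Gpr65 was 0.38 higher (edgeR, adjusted p = 0.0206). P2ry14, a receptor for UDP-glucose, was 1.63 higher in experiment 1 (edgeR, adjusted p = 4.5e-06) and stood at -0.72 in experiment 2 (edgeR, adjusted p = 0.0652). P2ry6, the UDP receptor, was 0.37 higher in experiment 1 (edgeR, adjusted p = 0.0081) and stood at 0.47 in experiment 2 (edgeR, adjusted p = 0.0833).

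**Figure D3:**
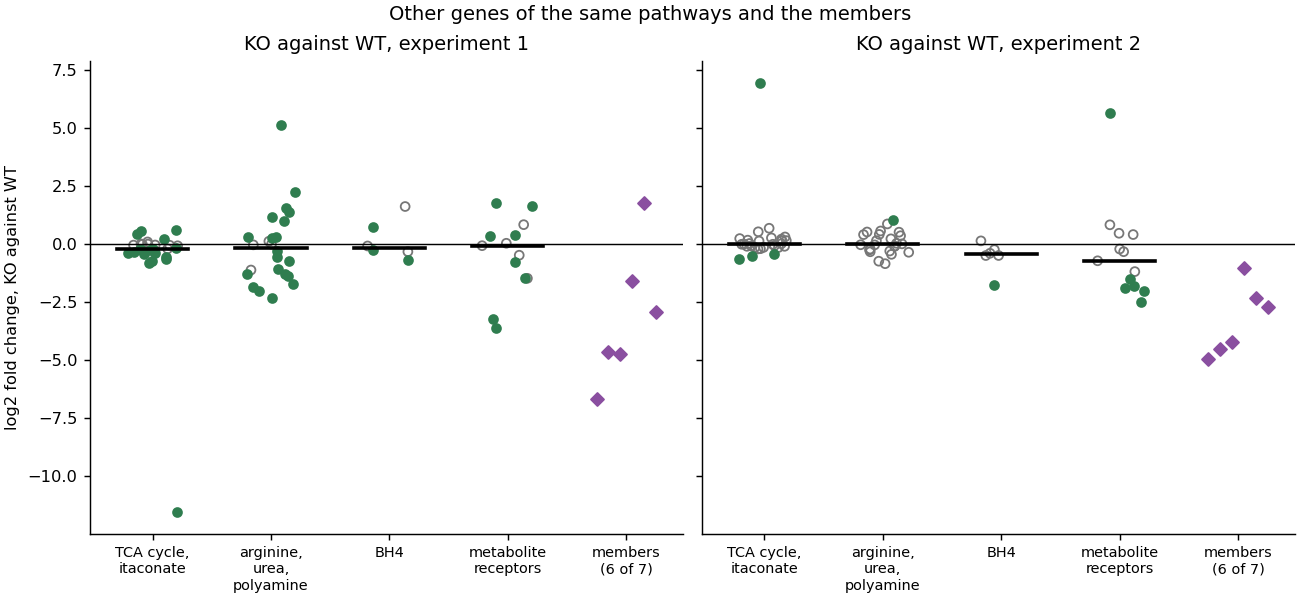
Log2 fold change of KO against WT (vertical axis) for the tested genes of 4 lists and for 6 of the 7 members (diamonds, Sucnr1 left out), in experiment 1 (left) and experiment 2 (right). BH4 is tetrahydrobiopterin, filled green points passed an adjusted p of 0.05, open points did not, and bars are list medians. The list medians lie between -0.72 and -0.01, and the point at -11.55 on the left and 6.96 on the right is Slc13a3.

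Across the lists, 71 of 85 other pathway genes were tested, and 69.0% of them passed in experiment 1 against 16.9% in experiment 2. Over all genes tested the shares were 54.2% and 15.1%. The gap was smaller with all 8 libraries in one fit, where 35 and 21 pathway genes and 6458 and 4955 of all genes passed, and without KO library 8 experiment 2 came to 2 pathway genes and 293 of all genes.

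The members that passed the threshold were counted beside the share of all genes, from which nothing is read because the members were chosen on these contrasts. In experiment 1, 6 members were called lower, beside 27.4% of all genes, and 1 (Slc7a2) was called higher, beside 26.8%. In experiment 2, 4 members (Acod1, Gpr84, Nos2 and Hcar2) were called lower, beside 8.00% of all genes. These 4 were called lower in each experiment alone, as were 2.15% of all genes. With both experiments in 1 fit they were again the 4 members called lower, beside 3.26%. Slc7a2 was the 1 member with a called difference between the experiments, beside 39.8% of all genes. With no filter on low counts Acod1, Ass1 and Sucnr1 were called as well, Hcar2 was called without WT library 3, and Sucnr1 without KO library 7. Every KO library was below every WT library for 6 members in experiment 1 (38.0% of all genes), for 5 in experiment 2 (32.0%), and for Acod1, Gpr84 and Hcar2 over all 8 libraries (5.90%). The median log2 fold change of the members in experiment 1 was at most -2.92, with Sucnr1 at its bound, and -4.64 with its fitted value. It was -2.70 in experiment 2 and -2.80 over both. The medians over all genes were 0.02, 0.00 and 0.01, respectively.

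The order of the genes by level was taken from CPM divided by exon length in kilobases (RPKM), since CPM is not comparable between genes of different length. In WT of experiment 1, Acod1 (175 ± 93.7 RPKM, SD, n = 2) was followed by Gpr84 (17.8 ± 2.21). Ass1 (6.79 ± 2.71) and Hcar2 (6.52 ± 1.08) came next and overlapped. Nos2 (0.479 ± 0.0848), Slc7a2 (0.274 ± 0.0400) and Sucnr1 (0.181 ± 0.0223) were all under 1 RPKM. In WT of experiment 2, Acod1 (926 ± 403) and Gpr84 (138 ± 13.8) led again. Hcar2 (21.8 ± 11.1), Ass1 (11.5 ± 8.39) and Nos2 (6.83 ± 4.72) came next, and Hcar2 overlapped with Ass1 and Ass1 with Nos2. The KO order differed, in that Ass1 (2.26 ± 0.659) was level with Acod1 (1.74 ± 0.535) in experiment 1, within their spread. In KO of experiment 2, Acod1 (30.1 ± 15.4) was first, and Gpr84 (6.07 ± 1.83) and Ass1 (5.63 ± 1.79) overlapped.

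Levels also differed between the experiments within a genotype, a comparison for which batch and experiment cannot be told apart. In WT, experiment 2 was above experiment 1 by 14.2-fold for Nos2, 9.15-fold for Slc7a2 and 7.75-fold for Gpr84. It was above by 5.28-fold for Acod1 and 3.34-fold for Hcar2. Ass1 (1.69-fold) and Sucnr1 (0.719 of experiment 1) overlapped. In KO, experiment 2 was above experiment 1 by 21.2-fold for Nos2, 17.3-fold for Acod1, 8.49-fold for Gpr84, 3.87-fold for Hcar2 and 2.49-fold for Ass1. As differences of mean log2 CPM, the central 90% of all genes lay between -1.17 and 1.39 in WT and between -1.83 and 1.00 in KO. Acod1 stood at 2.44 in WT and 4.03 in KO there. Nos2 stood at 3.61 and 3.66, so that in KO it was below Acod1 on this scale. Its KO values of experiment 1 were 2 and 4 reads. The remaining WT values were 3.06 (Slc7a2), 2.95 (Gpr84), 1.65 (Hcar2), 0.59 (Ass1) and -0.51 (Sucnr1). Slc7a2 was lower in KO of experiment 2, at 0.539 of experiment 1. The means of Acod1, Gpr84, Nos2 and Hcar2 were thus higher in experiment 2 in both genotypes.

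**Figure D4:**
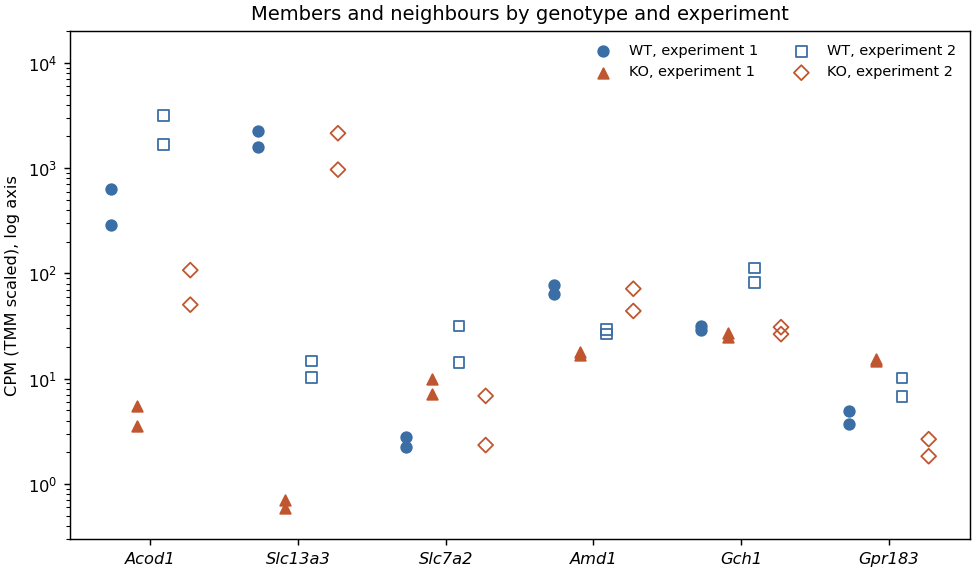
CPM (vertical axis, log scale) in each library for Acod1, Slc7a2 and 4 other genes of the same pathways. Filled symbols are experiment 1 and open symbols experiment 2, with WT in blue and KO in orange. Acod1 is lower in KO in both experiments, Slc7a2 and Gpr183 change direction, and the genotype with high Slc13a3 is WT in experiment 1 and KO in experiment 2.

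Within the members, Acod1, Gpr84, Nos2 and Hcar2 followed each other over the 8 libraries, with Pearson r of log2 CPM between 0.961 and 0.983. Slc7a2 had r between -0.311 and 0.414 with the others. These values describe libraries that share genotype and experiment, and are given without a test. Of the 11003 genes above the level set for this comparison, those most like Acod1 were Ptgs2 (r = 0.993), the inducible cyclooxygenase gene, Trim13 and Nadk. For Gpr84 they were Tnf (r = 0.997), the gene of tumour necrosis factor, Ehd1 and Gtf3c5, and for Hcar2 N4bp1 (r = 0.995), Rhbdf2 and Irak2. Nos2 was most like Mrpl52 (r = 0.994), Mrpl11 and Rbmx2. Ass1 had Prdx5 (r = 0.977), the citrate synthase gene Cs and Fgr nearest to it. Slc7a2 had Il18bp (r = 0.992), Srebf2 and AC102225.3, and Sucnr1, from few reads, Rab1b (r = 0.989), Nudt5 and Atp2c1.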

How the data were processed

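Gene counts, the unit of the 2 deposited raw tables, were made by the authors from stranded mRNA libraries (TruSeq Stranded mRNA), with STAR 2.7.0f, featureCounts of Subread 1.6.4 and GRCm38 named in the submitters' processing notes, which also name DESeq2 1.22.1. The normalized signal tables that the authors deposited are the counts multiplied by 1 scaling factor per library (0.920 to 1.12) and were used only for that check. The submitters compared the genotypes separately for each experiment. Here, edgeR 4.0.16 (R 4.3.3) quasi-likelihood fits with TMM scaling and filterByExpr (38117 rows left out) were made for experiment 1, experiment 2, both experiments with an experiment term, and the difference between them. Benjamini-Hochberg adjustment ran over all 15618 genes with a threshold of 0.05. CPM values are TMM scaled, and RPKM used exon lengths of GENCODE M21. DESeq2 1.42.0 and limma 3.58.1 served as alternatives, as did other scaling and filters and leaving out each library. The scripts were tested on simulated data. Libraries of a group differed by more than counting noise, so none was a copy.

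The members and lists were chosen with earlier results of these data known. The genes named were the members, Mkl1, of each list the 3 with the smallest p in each experiment and the 3 with the highest mean CPM, markers that moved with a group, and the 3 genes most correlated with each member. Hcar1 was added after its values were seen. One gene that the rule for the members picks and some genes of the lists are not reported here, and the counts over the lists still include the latter. Intervals and limits cover counting error only.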

Additional observations from a re-analysis of the deposited data

Results flagged for a closer look

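For several genes the effect of KO differed between the experiments by the edgeR test of the difference itself, as it did for 39.8% of all genes tested. The values are experiment 2 minus experiment 1 on the log2 scale. Slc7a2 differed by -4.09 and Mkl1 by -0.77. The difference of Mkl1 no longer passed when WT library 1, WT library 2, WT library 4, KO library 5 or KO library 6 was left out. Among the other pathway genes Slc13a3 differed by 18.49, Amd1 by 3.07, Slc3a2 by 1.79, Azin1 by 1.78 and Dld by 0.57. In the other direction were Gpr183 at -3.71, P2ry14 at -2.36, Gpr65 at -2.19, Gpr132 at -1.98, Gch1 at -1.54, Gatm at -1.02, Pts at -1.01 and Slc25a11 at -0.46. The fibroblast markers of KO libraries 5 and 6 lie in experiment 1 alone, and their part in these differences was not tested.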

How the results depend on the processing

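In experiment 1, 8465 genes passed, and 6955 to 7663 when a library was left out. The 7 members called became 5 to 7. The 49 pathway genes became 40 to 43, or 19 with a change of at least 2-fold as well. In experiment 2, 2358 genes passed, 293 to 1166 with a library left out and 4955 with all 8 libraries in one fit. The 4 members became 1 (without KO library 8) to 5, or 1 without a filter. The 12 pathway genes became 2 to 8, 21 with all 8 libraries in one fit, or 4 at an adjusted p under 0.01. Over both experiments 1070 genes passed, 231 to 1128 with a library left out, 2557 with DESeq2, 4962 for the mean of both genotype effects, and 4 (0 members) with no experiment term. With a library left out, the log2 fold change of Ass1 in experiment 2 ran from -1.63 to 0.018 (above 0 without WT library 3), and that of Slc7a2 over both experiments from -1.10 to 0.60 (above 0 without WT library 3, 0.26, KO library 7, 0.33, or KO library 8). The difference between the experiments ran from -0.25 to 0.65 for Gpr84 (below 0 without WT library 1, -0.01, KO library 5, or KO library 8, -0.23). It ran from -0.077 to 1.47 for Nos2 (below 0 without WT library 4, or KO library 7, -0.02), from -0.044 to 1.604 for Ass1 and from -0.23 to 0.86 for Hcar2 (both below 0 without WT library 4). The cause of these changes was not tested. Where an arm was left with 1 library, that library is assumed to vary like the others. No paired analysis was possible because the groups share no replicate numbers. Depth limits Nos2 and Sucnr1 in KO libraries of experiment 1.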
